A study of Mus musculus with 12 samples.

Results

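The Cyp3a genes encode the CYP3A subfamily of cytochrome P450 enzymes, and 7 of them (Cyp3a11, Cyp3a13, Cyp3a16, Cyp3a25, Cyp3a41a, Cyp3a44 and Cyp3a59) were followed here in mouse liver. They were taken by symbol, with earlier results of these data known, from the 51912 genes of the count table, which holds 11 genes whose symbol begins with Cyp3a. Each gene is described alone and as part of the summed Cyp3a counts, because close relatives can share reads. The RNAseq data came from 12 livers, 3 from each of 4 groups of adult male mice on a C57BL/6NTac background, and the study asked how human CAR and PXR change the response to CITCO.

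The wild-type (WT) corn oil mice carried the mouse receptors and were given the vehicle. The WT CITCO mice had the same genotype and were given CITCO, a compound used as an activator of human CAR, at 10 mg/kg according to the sample labels. The study's methods name a higher dose as well, so the dose rests on the labels alone. The hCAR/hPXR mice were humanised for CAR and PXR, and the Car KO/hPXR mice lacked Car and were humanised for PXR, and both were given CITCO. All mice were injected intraperitoneally each day for 4 days and killed on day 5. Corn oil libraries of the humanised genotypes were not analysed here, so in these mice the effect of CITCO and the effect of the genotype cannot be told apart. The human receptors were not counted either, since reads were assigned to mouse genes.

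CYP3A enzymes sit in the endoplasmic reticulum, where they oxidise steroids, bile acids and a large share of prescribed drugs. They receive electrons from P450 oxidoreductase (Por) and cytochrome b5 (Cyb5a). PXR and CAR are nuclear receptors that pair with RXR, bind repeated hexamers close to their targets and raise transcription when a ligand or activator is present. Mouse Cyp3a11 is the classic PXR target of this subfamily in liver, Cyp3a13 and Cyp3a25 are expressed in liver and intestine, Cyp3a16 is known from fetal liver, and Cyp3a41a and Cyp3a44 are known as female-biased genes.

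On GRCm38 (GENCODE M21), 6 of the 7 genes lie in 1 cluster on chromosome 5. The cluster runs from 145345279 to 146113287, spans 768009 bases and holds 9 annotated Cyp3a genes. Cyp3a11 (ENSMUSG00000056035, 145854426 to 145879964) and Cyp3a25 (ENSMUSG00000029630, 145977194 to 146009618) lie on the minus strand. Cyp3a59 (ENSMUSG00000061292, 146079257 to 146113287) lies on the plus strand at the end of the cluster, with its 5′ end facing that of Cyp3a25. Cyp3a16 (ENSMUSG00000038656, 145436309 to 145469723), Cyp3a41a (ENSMUSG00000075551, 145694049 to 145720136) and Cyp3a44 (ENSMUSG00000054417, 145773983 to 145805874) are also on the minus strand. Cyp3a13 (ENSMUSG00000029727, 137892932 to 137921619, minus strand) stands alone, 7.42 Mb from the cluster. Each of the 7 genes has 13 exons in its longest coding transcript.

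The transcripts fell into 3 sequence groups, as the plot of transcript similarity shows. Cyp3a25 and Cyp3a59 were 97.04% identical over 1990 aligned bases. Cyp3a11, Cyp3a16, Cyp3a41a and Cyp3a44 formed another group, in which Cyp3a41a and Cyp3a11 were 94.46% identical. Cyp3a13 reached between 70.8% and 72.59% identity with the other 6 genes.

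**Figure D1:**
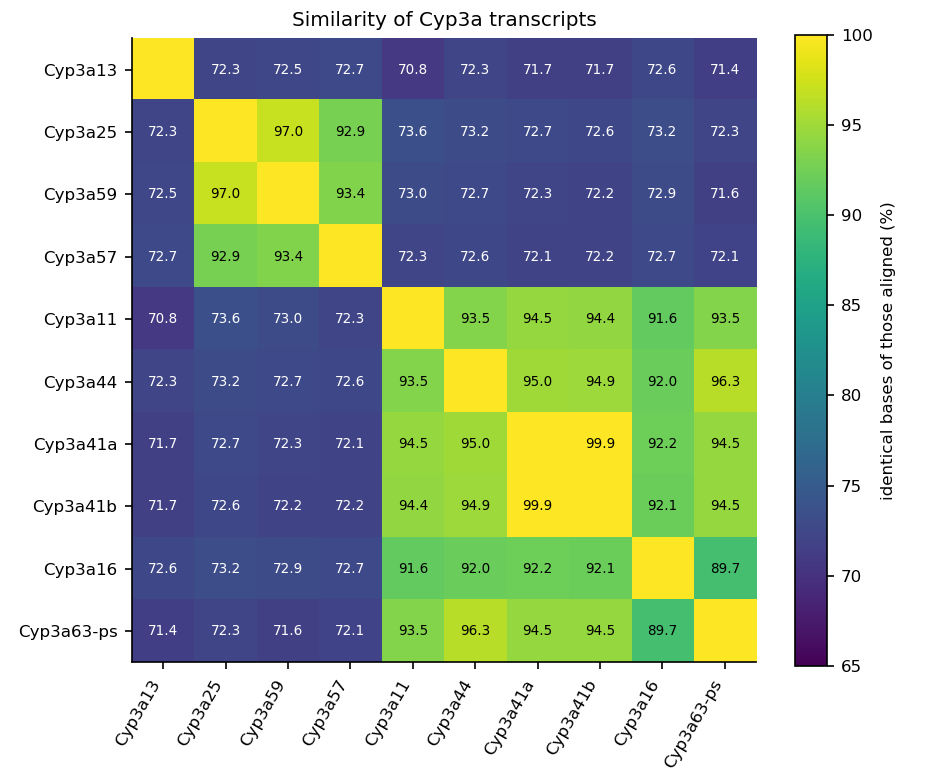
Similarity of Cyp3a transcripts: each cell gives the percent of identical bases among those aligned between the longest coding transcripts of 2 genes (for the pseudogene Cyp3a63-ps, its annotated transcript), with the colour scale running from 65% to 100%. Cyp3a25 and Cyp3a59 share 97.04% of aligned bases, and Cyp3a13 stands apart from every other gene.

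QuantSeq reads start near the poly(A) tail, and the last stretch of each transcript therefore decides what is counted. For Cyp3a13, 100% of the 50-base windows in the last 500 bases occurred in no other Cyp3a transcript. The share was 99.56% for Cyp3a11 and 96.9% for both Cyp3a25 and Cyp3a59. At that length, most windows of these 4 genes thus had no exact match in another Cyp3a transcript. The share was lower for Cyp3a16 (80.49%) and Cyp3a44 (64.75%). It was 0% for Cyp3a41a, whose last 500 bases are the same as those of Cyp3a41b. A window with any mismatch counted as unmatched, so the ends could still be close. The last 500 bases of Cyp3a25 and Cyp3a59 were 95.39% identical over 499 aligned bases. Those of Cyp3a11 and Cyp3a41a were 94.95% identical over 317. RSEM, which divides a read that fits several genes, gave some values that were not whole numbers (by more than 0.005). This held for Cyp3a25 and Cyp3a59 in all 12 libraries, for Cyp3a11 in 10 of 12, for Cyp3a41a in 9 of 12 and for Cyp3a13 in 0 of 12. In each library the values of Cyp3a25 and Cyp3a59 added up to a whole number. Those of Cyp3a11, Cyp3a41a and Cyp3a63-ps together did so too, to within rounding. Some reads of Cyp3a25, Cyp3a59, Cyp3a11 and Cyp3a41a were thus divided between genes, and how many cannot be read from these values.

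The 250 bases before the RefSeq start of the 4 genes that could be tested are printed here because PXR and CAR are known to act at such regions and because 3 of the 4 were called together in 1 comparison below. Capitals mark the half-site AGGTCA or AGTTCA on either strand (TGACCT or TGAACT when read on the gene's strand), the hexamer that nuclear receptor pairs bind. The sequences are from RefSeq on GRCm38.p6, written 5′ to 3′ on the strand of the gene.
Cyp3a11 (chr5:145879855-145880104, minus strand): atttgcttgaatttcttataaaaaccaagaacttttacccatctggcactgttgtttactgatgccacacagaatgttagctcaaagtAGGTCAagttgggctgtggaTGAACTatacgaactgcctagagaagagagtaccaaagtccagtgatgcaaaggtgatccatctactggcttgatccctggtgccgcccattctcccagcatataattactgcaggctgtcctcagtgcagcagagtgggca
Cyp3a25 (chr5:146009619-146009868, minus strand): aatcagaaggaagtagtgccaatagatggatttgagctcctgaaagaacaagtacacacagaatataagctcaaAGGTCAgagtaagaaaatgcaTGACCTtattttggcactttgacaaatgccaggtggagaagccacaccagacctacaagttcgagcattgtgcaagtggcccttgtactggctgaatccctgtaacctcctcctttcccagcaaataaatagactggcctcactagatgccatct
Cyp3a59 (chr5:146079008-146079257, plus strand): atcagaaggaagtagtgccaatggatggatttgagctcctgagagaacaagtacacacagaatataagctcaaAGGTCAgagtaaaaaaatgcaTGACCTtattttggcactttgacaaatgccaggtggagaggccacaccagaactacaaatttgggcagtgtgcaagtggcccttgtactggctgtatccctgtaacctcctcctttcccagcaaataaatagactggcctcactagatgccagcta
Cyp3a13 (chr5:137921620-137921869, minus strand): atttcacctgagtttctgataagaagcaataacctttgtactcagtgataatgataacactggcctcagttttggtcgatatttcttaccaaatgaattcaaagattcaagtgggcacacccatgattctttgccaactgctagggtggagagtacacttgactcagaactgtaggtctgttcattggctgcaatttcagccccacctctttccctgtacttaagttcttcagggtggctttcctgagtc

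The windows of Cyp3a25 and Cyp3a59 were 95.58% identical over 249 aligned bases and carried the same pair of half-sites. In Cyp3a59, AGGTCA ran from 177 to 172 bases before the start (positions -177 to -172) and TGACCT from -156 to -151. The Cyp3a25 window was taken from 1 of 2 RefSeq starts, and its hexamers sat at -176 to -171 and -155 to -150. Cyp3a11 also had a pair, AGGTCA at -162 to -157 and TGAACT at -142 to -137, in a window 64.68% identical to that of Cyp3a25. The RefSeq start of Cyp3a11 lies 110 bases inside its longest annotated transcript. The window of Cyp3a13 held 0 matches. A half-site was found in 24.16% of 32851 promoter windows of the same length, so such a match is common. Exact pairs of these half-sites were also searched in the arrangements known for PXR and CAR. These are direct repeats with 3 or 4 bases between them and everted repeats with 6. Such pairs occurred in 4, 8 and 3 of the 32851 windows and in none of the Cyp3a windows. The search allowed no mismatch in either hexamer, so it says nothing of looser matches or of sites farther away. Of the members with few or no reads, Cyp3a44 had AGGTCA at -150 to -145, Cyp3a41a had TGAACT at -130 to -125 and Cyp3a16 had no match.

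Between 1167027 and 2341572 counts were assigned to genes per library, and 3 counts corresponded to between 1.281 and 2.571 CPM before scaling. Levels are given below as CPM, which relates the count of a gene to the TMM-scaled total of its library. Mouse Nr1i2 (Pxr) had between 100 and 199 counts in the WT libraries and at most 2 in the humanised ones, and Nr1i3 (Car) had between 104 and 287 against at most 6 in the humanised ones. This separates the WT from the humanised libraries for all 12, but it cannot tell hCAR/hPXR from Car KO/hPXR libraries, since the human receptors were not counted. The 8 hepatocyte markers were all detected in each group, at summed levels of 20593, 21853 and 36741 CPM in the hCAR/hPXR libraries and between 27100 and 35226 CPM in the other 9. Thus 2 of the 3 hCAR/hPXR livers, the group with the highest Cyp3a sum, had less of these markers than every other liver, and the part of this in the results was not tested. Of 8 markers of small intestine, another site of Cyp3a expression, 6 were at 0 in all 12 libraries. In bulk tissue, fewer cells of a type and less RNA per cell cannot be told apart. The hCAR/hPXR livers stood apart in the 5 neutrophil markers, which summed to between 33.55 and 50.05 CPM against 2.81 to 10.85 CPM in the other 9 libraries, with 1 of the 5 at 0 in this group and 2 or 3 at 0 in the others. The 8 Kupffer cell markers summed to between 389.52 and 524.32 CPM in hCAR/hPXR livers, 308.15 to 468.35 in WT CITCO, 322.3 to 372.88 in Car KO/hPXR and 266.25 to 317.1 in WT corn oil livers. The neutrophil markers therefore move with the hCAR/hPXR group in the results below, and their part in those results was not tested.

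Cyp3a11 supplied most Cyp3a reads in each liver. Its level was 1365, 702 and 907 CPM in the WT corn oil mice (replicates 1 to 3) and 756, 811 and 1121 CPM in the WT CITCO mice. It was 3864, 3531 and 3488 CPM in the hCAR/hPXR mice and 1358, 2423 and 1551 CPM in the Car KO/hPXR mice. Every hCAR/hPXR liver lay above every other liver, and the Car KO/hPXR livers lay above the WT CITCO livers but overlapped with WT corn oil, whose replicate 1 was slightly above the lowest of them. The means were 991 ± 340 (WT corn oil), 896 ± 197 (WT CITCO), 3628 ± 206 (hCAR/hPXR) and 1777 ± 568 CPM (Car KO/hPXR; SD, n = 3 each). The hCAR/hPXR livers were the most alike, with a coefficient of variation of 5.7% against 21.9% to 34.3% in the other groups. In the order of the levels, the neighbours WT CITCO and WT corn oil did not differ beyond their spread.

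Cyp3a25 showed the same order with smaller steps. It stood at 511, 353 and 292 CPM in WT corn oil, 246, 291 and 381 CPM in WT CITCO, 717, 675 and 673 CPM in hCAR/hPXR and 508, 691 and 512 CPM in Car KO/hPXR livers. Both humanised groups lay above all WT CITCO livers but overlapped each other, since Car KO/hPXR replicate 2 exceeded 2 of the 3 hCAR/hPXR livers. The means were 385 ± 113 in WT corn oil, 306 ± 68.7 in WT CITCO, 688 ± 25.1 in hCAR/hPXR and 570.1 ± 105 CPM in Car KO/hPXR mice (SD, n = 3 each).

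Cyp3a59, the closest relative of Cyp3a25 by sequence, was measured from few reads. It had 52, 8 and 24 counts in WT corn oil, 7, 14 and 12 in WT CITCO, 84, 86 and 33 in hCAR/hPXR and 59, 65 and 20 in Car KO/hPXR libraries. As CPM these were 23.3, 5.70 and 14.6, then 4.55, 9.42 and 8.13, then 43.6, 49.8 and 27.7, and then 37.6, 54.5 and 16.5. Both humanised groups were above every WT CITCO liver and overlapped each other, and in each of them replicate 3 was the lowest. The means were 14.5 ± 8.80 (WT corn oil), 7.37 ± 2.52 (WT CITCO), 40.4 ± 11.4 (hCAR/hPXR) and 36.2 ± 19.0 CPM (Car KO/hPXR; SD, n = 3 each). The ratio of Cyp3a25 to Cyp3a59 counts ranged from 12.7 to 62.0 over the 12 libraries.

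For Cyp3a13, the member outside the cluster, the Car KO/hPXR livers overlapped with the WT CITCO livers, unlike for the other tested members. Its level was 155, 123 and 107 CPM in WT corn oil, 150, 165 and 152 CPM in WT CITCO, 345, 208 and 293 CPM in hCAR/hPXR and 145, 200 and 166 CPM in Car KO/hPXR livers. As for Cyp3a11, the hCAR/hPXR livers were above all others, and the other 3 groups overlapped. The hCAR/hPXR mean was 282 ± 69.3 CPM, against 128 ± 24.4 in WT corn oil, 156 ± 8.35 in WT CITCO and 170.1 ± 27.6 in Car KO/hPXR mice (SD, n = 3 each).

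The remaining members were near or below detection. Cyp3a41a had 10, 1 and 2 counts in WT corn oil, 2, 1 and 3 in WT CITCO, 11, 9 and 9 in hCAR/hPXR and 6, 10 and 1 in Car KO/hPXR libraries, and these counts cannot be told apart from those of Cyp3a41b, which was listed at 0 throughout. The values of Cyp3a41a were not whole in 9 of 12 libraries, so some of its reads were divided with other genes. The hCAR/hPXR counts of Cyp3a41a were above all those of WT CITCO, but the gene did not pass the expression filter and was not tested. The part of reads divided with Cyp3a11 in this order was not tested either. Cyp3a16 had 1 count in all, in Car KO/hPXR replicate 1, and Cyp3a44 had 1, in Car KO/hPXR replicate 2. Both were thus at or below 3 counts in every library, and no difference was detectable at this depth. Among the other Cyp3a genes of the table, Cyp3a57 had 1 count and Cyp3a61-ps1 had 0, while the pseudogene Cyp3a63-ps had between 0 and 22 counts, with 14, 22 and 7 in the hCAR/hPXR libraries and at most 9 elsewhere.

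**Figure D2:**
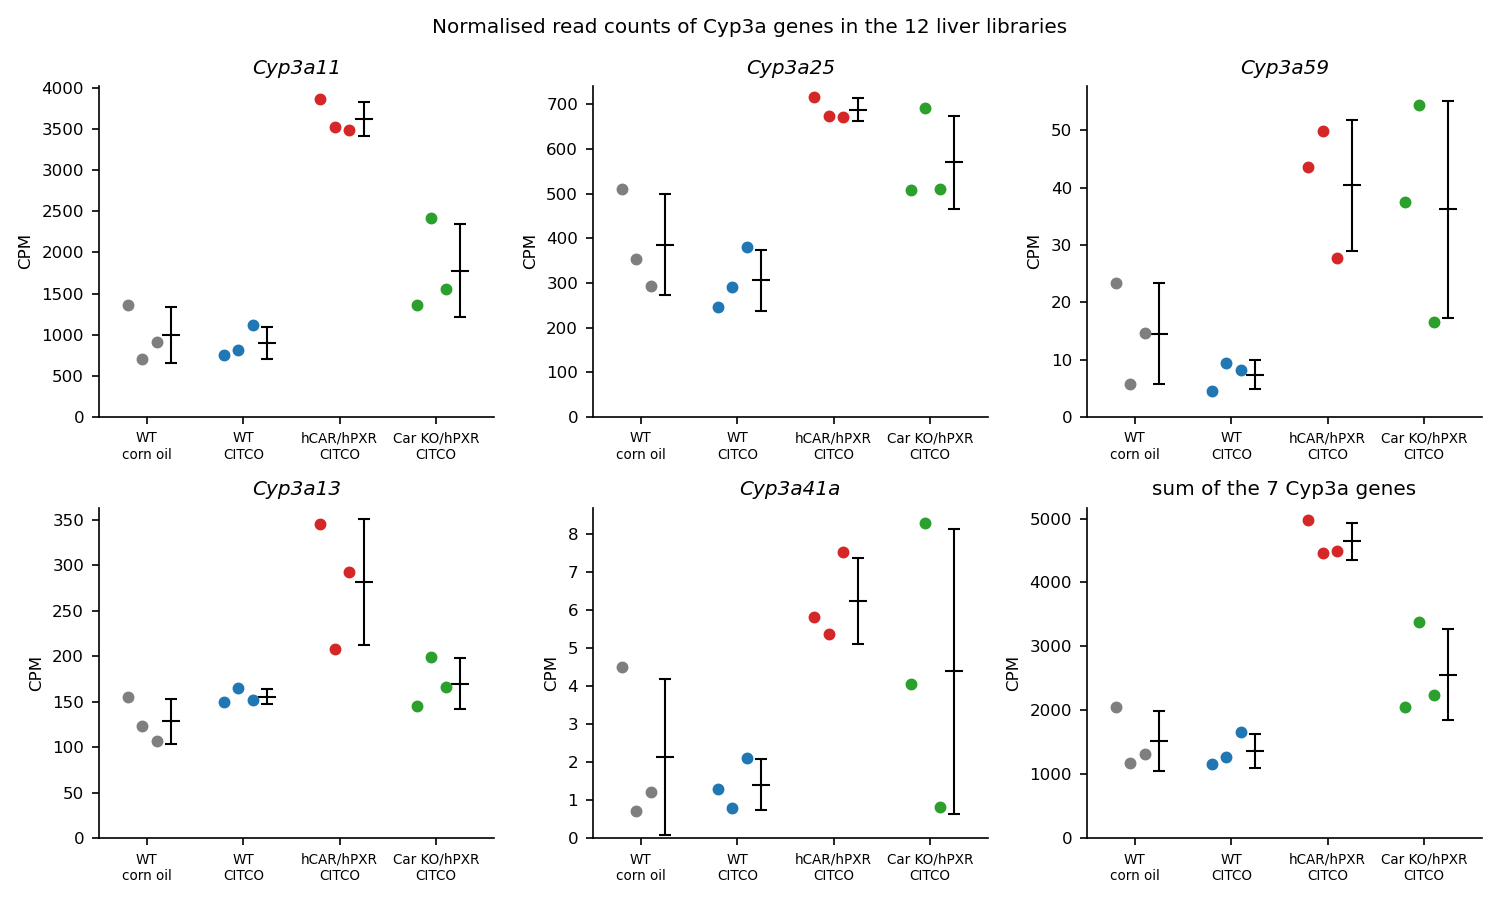
Levels of 5 Cyp3a genes and of the sum over the 7 genes: the y axes give CPM after TMM scaling and start at 0, each point is 1 liver, and the black bars give the mean ± SD of 3 livers. For Cyp3a11, Cyp3a13 and the sum, each hCAR/hPXR liver lies above all other livers; for Cyp3a25 and Cyp3a59 the hCAR/hPXR and Car KO/hPXR livers overlap.

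Added together, the 7 genes gave 2059, 1185 and 1322 CPM in WT corn oil, 1158, 1278 and 1664 CPM in WT CITCO, 4976, 4469 and 4489 CPM in hCAR/hPXR and 2053, 3378 and 2245 CPM in Car KO/hPXR livers. The sum does not depend on how reads were divided among the 7. The hCAR/hPXR livers were above all others, and the Car KO/hPXR livers were above all WT CITCO livers and overlapped with WT corn oil replicate 1. That replicate was the deepest library and the highest of its group for Cyp3a11, Cyp3a13, Cyp3a25, Cyp3a59 and Cyp3a41a. Cyp3a reads were between 0.112% and 0.196% of all counts in the WT libraries, 0.215% to 0.322% in Car KO/hPXR and 0.447% to 0.477% in hCAR/hPXR libraries.

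The make-up of the sum also differed in hCAR/hPXR livers. Cyp3a11 made up 78.1 ± 0.77% of Cyp3a counts there, against 64.7 ± 4.89% in WT corn oil, 65.4 ± 1.95% in WT CITCO and 69.0 ± 2.80% in Car KO/hPXR livers (SD, n = 3 each). Cyp3a25 made up 14.8 ± 0.37% there and between 22.3 ± 0.93% and 25.6 ± 3.91% in the other groups. The ratio of Cyp3a11 to Cyp3a25 counts was 5.39, 5.23 and 5.18 in the hCAR/hPXR libraries and between 1.99 and 3.51 in the other 9, so the 2 genes did not differ from the other groups by the same factor. In Car KO/hPXR livers the ratio (2.67, 3.51 and 3.03) overlapped with that of WT CITCO livers (3.08, 2.78 and 2.94). Because reads of 3′ libraries were not scaled by transcript length, these are shares of reads.

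**Figure D3:**
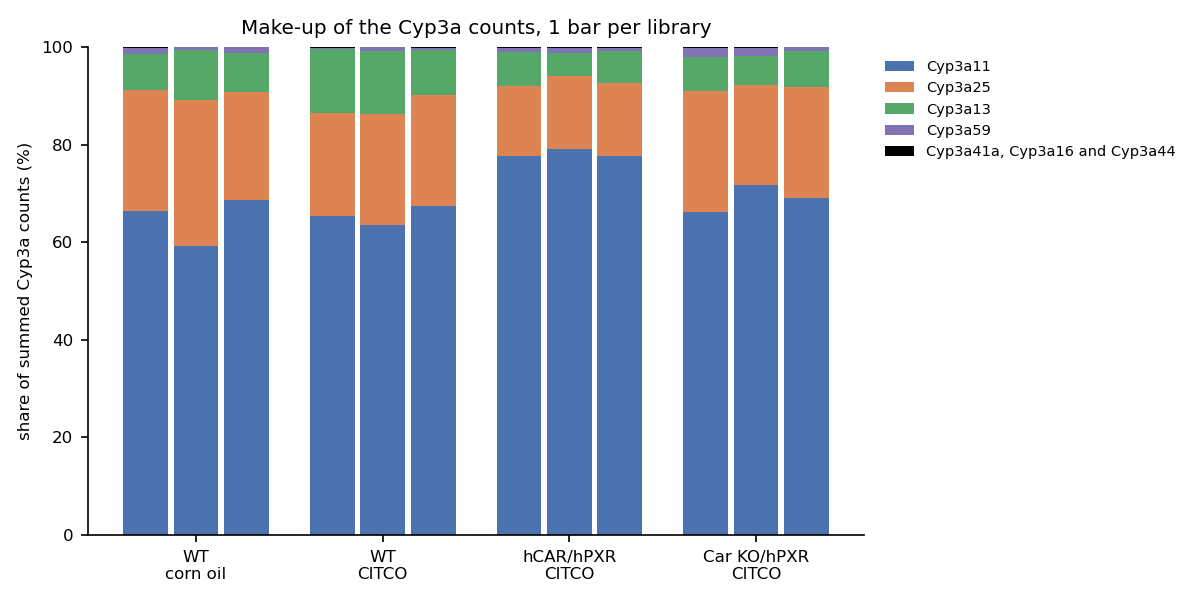
Make-up of the Cyp3a counts: each bar is 1 library, in the order of replicates 1 to 3 within a group, and its coloured parts give the share of the summed counts of the 7 genes in percent. Cyp3a11 takes between 77.7% and 79.0% in the hCAR/hPXR libraries and between 59.2% and 71.7% in the other 9.

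The 7 comparisons below are between these samples, 1 liver each, and their p-values measure the spread between them. Tests were run with edgeR's quasi-likelihood test on the 8594 genes that passed its expression filter, with p-values adjusted by Benjamini-Hochberg over all of them. A gene was called at an adjusted p under 0.05 and a fold change over 1.5. In the order of the 7 comparisons below, 757, 799, 913, 785, 939, 481 and 746 of these genes had an unadjusted p under 0.05. Cyp3a11, Cyp3a13, Cyp3a25 and Cyp3a59 were tested, and the other 3 members were not. Each fold change below is on the log2 scale with its standard error (SE).

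Against WT CITCO livers, 3 Cyp3a genes rose in the hCAR/hPXR group, and the 4 tested members were all higher in each hCAR/hPXR liver than in any WT CITCO liver. Cyp3a11 was 4.05-fold higher (log2 fold change 2.02, SE 0.26, edgeR adjusted p = 0.000404). Cyp3a25 was 2.25-fold higher (1.17, SE 0.21, edgeR adjusted p = 0.0113), and Cyp3a59 was 5.37-fold higher (2.43, SE 0.47, edgeR adjusted p = 0.0215). Cyp3a13 had a 1.81-fold difference that did not pass (0.86, SE 0.19, edgeR adjusted p = 0.0632). Of all genes tested, 0.256% were called higher and 0.151% lower in this comparison, against 3 of the 4 tested members. Complete separation of the livers in this direction was seen for 7.12% of all genes, against 4 of 4. In the two-sided exact permutation test of each gene, p was 0.1, the smallest that 3 mice against 3 allow. The sum over the 7 genes was 3.40-fold higher, a log2 difference of 1.77 with a 95% interval of 1.27 to 2.26, given without a test.

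These 3 calls were not equally stable. Cyp3a11 stayed called with any of the 6 libraries left out. Cyp3a25 was not called without WT CITCO replicate 1 (adjusted p = 0.109), WT CITCO replicate 2 (0.0811) or hCAR/hPXR replicate 1 (0.0523, edgeR in each case). Cyp3a59 was called in 1 of the 6 fits, the one without hCAR/hPXR replicate 3. Its edgeR adjusted p was 0.163, 0.0754 and 0.0734 without WT CITCO replicates 1, 2 and 3, and 0.096 and 0.0827 without hCAR/hPXR replicates 1 and 2. Cyp3a13 passed without hCAR/hPXR replicate 2 (log2 fold change 1.03, edgeR adjusted p = 0.0264), and also with DESeq2 (0.0045) and with no filter on low counts (0.000945). DESeq2 and the fit with no filter called more genes in general, 63 and 184 over all genes against 35 by edgeR with its filter. DESeq2 gave no adjusted p for Cyp3a59 in this comparison or in that of Car KO/hPXR with WT CITCO livers.

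**Figure D4:**
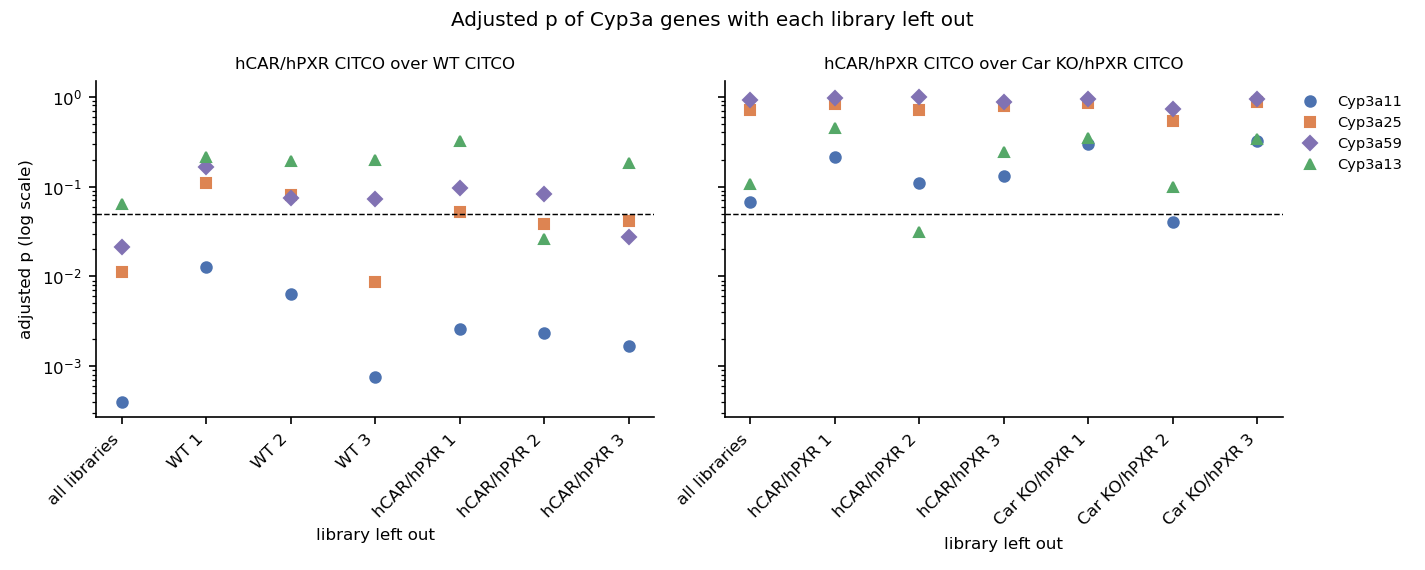
Adjusted p of 4 Cyp3a genes from edgeR's quasi-likelihood test (log scale) with all libraries and with each library of the compared groups left out in turn, for hCAR/hPXR against WT CITCO on the left and hCAR/hPXR against Car KO/hPXR on the right. On the left, Cyp3a11 stays below the dashed line at 0.05 in each fit, while Cyp3a25 and Cyp3a59 cross it; on the right, Cyp3a11 goes below it in 1 of 6 fits and Cyp3a13 in 1 of 6.

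Car KO/hPXR and WT CITCO livers differ both in the loss of Car and in the replacement of mouse Pxr, so the comparison does not isolate either. In the Car KO/hPXR livers the same 3 genes of the cluster had higher values, but 0 of the 4 tested members were called. Cyp3a11 differed 1.98-fold (0.99, SE 0.25, edgeR adjusted p = 0.114), Cyp3a25 1.86-fold (0.90, SE 0.21, edgeR adjusted p = 0.0766) and Cyp3a59 4.76-fold (2.25, SE 0.48, edgeR adjusted p = 0.0529). Cyp3a13 had 1.09-fold the WT level, with a 95% interval of -0.28 to 0.53 on the log2 scale. At an unadjusted p under 0.05 there were 3 members, DESeq2 called 2 (Cyp3a11 and Cyp3a25), limma on the transformed values called 0, and edgeR with no filter on low counts called 3. With its filter, edgeR called 0.163% of all genes higher and 0.0931% lower. Of the 8594 genes, 799 had an unadjusted p under 0.05. Over all genes, DESeq2 called 69, limma 15 and edgeR with no filter 227. The livers separated completely for 3 of the 4 members, as they did for 7.45% of all genes in this direction, with an exact permutation p of 0.1 for each of the 3. The sum was 1.87-fold that of WT CITCO livers, with a log2 difference of 0.91 (95% interval 0.42 to 1.39), and of 0.65 without Car KO/hPXR replicate 2. That liver was the highest of its group for all 4 tested members. Cyp3a25 passed without WT CITCO replicate 3 (edgeR adjusted p = 0.0324) and Cyp3a59 without Car KO/hPXR replicate 3 (edgeR adjusted p = 0.0247). The difference of Cyp3a13 was -0.004 without Car KO/hPXR replicate 2.

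The hCAR/hPXR and Car KO/hPXR livers, which differ in CAR, were compared directly, since a call against WT in 1 of them and not in the other is no test of their difference. Cyp3a11 had 2.04-fold the Car KO/hPXR level (1.03, SE 0.25, edgeR adjusted p = 0.0673) and Cyp3a13 1.66-fold (0.73, SE 0.19, edgeR adjusted p = 0.107). Neither passed, and 0 of 4 members were called by edgeR or by limma, while 2 had an unadjusted p under 0.05 and DESeq2 called the same 2 (adjusted p = 0.00264 and 0.0294). Cyp3a25 and Cyp3a59 differed by 0.27 (95% interval -0.15 to 0.70) and 0.17 (-0.651 to 0.999) on the log2 scale, with livers that overlapped. With its filter, edgeR called 0.303% of all genes higher and 0.279% lower in hCAR/hPXR livers. Of the 8594 genes, 913 had an unadjusted p under 0.05. Over all genes, DESeq2 called 96 and limma 43. The livers separated for Cyp3a11 and Cyp3a13, 2 of the 4 members, as for 8.01% of all genes in this direction (exact permutation p = 0.1 for each). Without Car KO/hPXR replicate 2, Cyp3a11 passed (1.315, edgeR adjusted p = 0.0405), and without hCAR/hPXR replicate 2, Cyp3a13 passed (0.91, edgeR adjusted p = 0.031). The difference of Cyp3a59 was -0.165 without Car KO/hPXR replicate 3 and -0.002 without hCAR/hPXR replicate 2. The sum was 1.81-fold higher in hCAR/hPXR livers (0.86, 95% interval 0.37 to 1.35), and its log2 difference was 1.11 without Car KO/hPXR replicate 2.

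In WT mice, the only genotype here with vehicle controls, CITCO went with no called change in any Cyp3a gene. The log2 differences were -0.15 for Cyp3a11 (95% interval -0.67 to 0.37), 0.27 for Cyp3a13 (-0.13 to 0.68), -0.34 for Cyp3a25 (-0.77 to 0.10) and -0.997 for Cyp3a59 (-2.05 to 0.06). The groups overlapped for all 4 genes, 0 of them had an unadjusted p under 0.05, and DESeq2, limma and edgeR with no filter on low counts called 0 as well. Of all genes tested, 0.175% were called higher and 0.0582% lower. The interval of Cyp3a11 reached past a 1.5-fold fall but not past a 1.5-fold rise, and that of Cyp3a59 was the widest of the 4. The sum differed by -0.16 (95% interval -0.64 to 0.33). Both directions rest on WT corn oil replicate 1: without it, Cyp3a11 differed by 0.16 and the sum by 0.13.

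**Figure D5:**
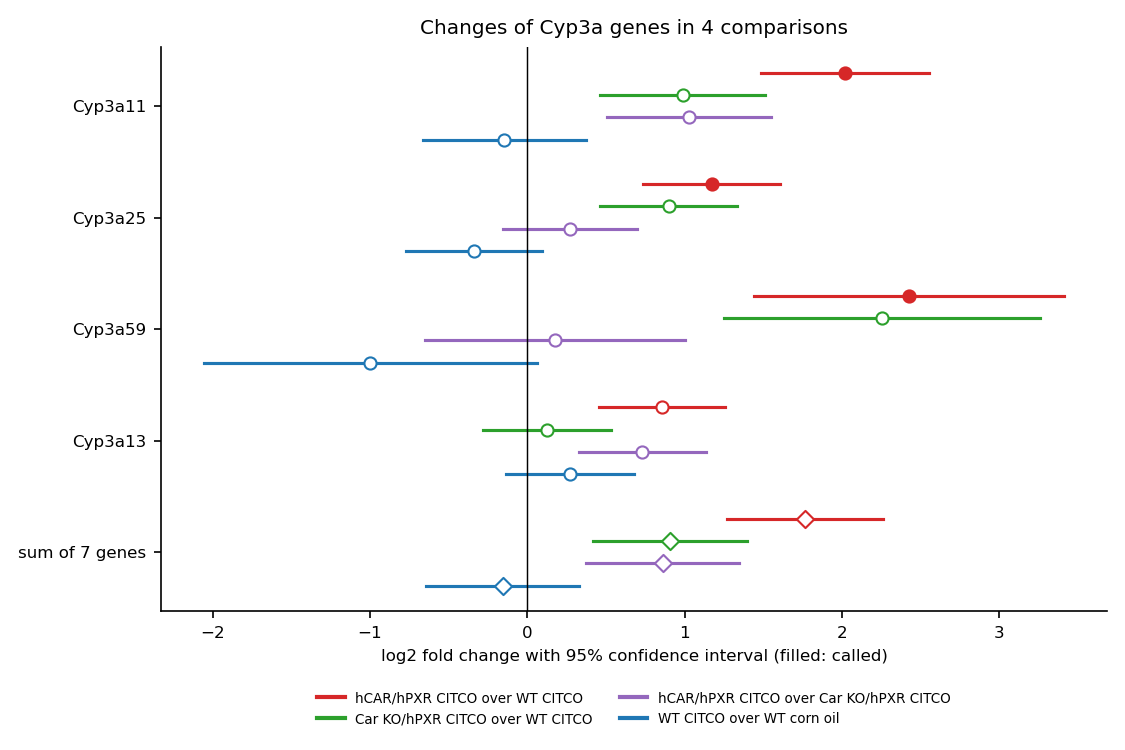
Changes of 4 Cyp3a genes and of the sum over the 7 genes in 4 comparisons: points give the log2 fold change of the first group over the second, lines the 95% confidence interval, and filled points the genes called. The 3 filled points are Cyp3a11, Cyp3a25 and Cyp3a59 in hCAR/hPXR over WT CITCO, and the intervals of WT CITCO over WT corn oil all include 0.

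The humanised groups were also set against WT corn oil, where genotype and treatment differ together. In hCAR/hPXR livers Cyp3a11 (3.66-fold, log2 fold change 1.87, SE 0.25, edgeR adjusted p = 0.00092) and Cyp3a13 (2.19-fold, 1.13, SE 0.19, edgeR adjusted p = 0.00565) rose, so 2 of 4 members were called against 0.71% of all genes called higher and 0.279% lower. Cyp3a25 (1.78-fold, edgeR adjusted p = 0.0588) and Cyp3a59 (2.69-fold, edgeR adjusted p = 0.137) did not pass. All 4 members separated completely, as 8.49% of all genes did in this direction. Cyp3a13 lost its call without WT corn oil replicate 2 (adjusted p = 0.0539) or replicate 3 (0.052), and Cyp3a25 passed without replicate 1 (0.0174) and with DESeq2 (0.00509). In Car KO/hPXR livers 0 of 4 members were called by edgeR, DESeq2 or limma, with 3 at an unadjusted p under 0.05, and edgeR called 0% of all genes higher and 0.0465% lower. The log2 differences there were 0.84 for Cyp3a11, 0.40 for Cyp3a13, 0.56 for Cyp3a25 and 1.25 for Cyp3a59. The sum differed by 1.61 in hCAR/hPXR (1.89 without WT corn oil replicate 1) and by 0.75 in Car KO/hPXR livers (1.03 without WT corn oil replicate 1 and 0.50 without Car KO/hPXR replicate 2). These comparisons share their control libraries, so their values are given side by side only.

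The mean of both humanised groups was compared with WT CITCO to describe what the mice with human PXR have in common. Cyp3a11 (2.83-fold, log2 fold change 1.503, SE 0.23, edgeR adjusted p = 0.00441), Cyp3a25 (2.05-fold, 1.03, SE 0.19, edgeR adjusted p = 0.0191) and Cyp3a59 (5.06-fold, 2.34, SE 0.43, edgeR adjusted p = 0.0214) rose, and Cyp3a13 had a 1.41-fold difference that did not pass (edgeR adjusted p = 0.367). Of all genes, 0.221% were called higher and 0.209% lower, against 3 of 4 members. For the 3 called genes each of the 6 humanised livers was above each of the 3 WT CITCO livers, which 1.85% of all genes showed, and the two-sided exact permutation p was 0.0238, the smallest that 6 mice against 3 allow. For Cyp3a13 the exact permutation p was 0.143. All 3 calls were lost without WT CITCO replicate 1 (edgeR adjusted p between 0.0996 and 0.173) or replicate 2 (0.083 to 0.168), and that of Cyp3a59 also without hCAR/hPXR replicate 1 (0.0504) or replicate 2 (0.0546).

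The partners that pass electrons to P450s were examined because CYP3A enzymes depend on them. Of 8 listed genes, all tested, 0 were called between hCAR/hPXR and WT CITCO livers (1 at an unadjusted p under 0.05, 0 by DESeq2 and 0 by limma), with a median log2 difference of 0.03 against 0.01 over all genes. Por itself averaged 214, 294, 410.4 and 269 CPM in WT corn oil, WT CITCO, hCAR/hPXR and Car KO/hPXR livers. It rose 1.92-fold between WT corn oil and hCAR/hPXR livers (edgeR adjusted p = 0.00962), the single call of this list by edgeR in the 7 comparisons. The difference of Por between hCAR/hPXR and WT CITCO livers did not pass (edgeR adjusted p = 0.365). Against Car KO/hPXR livers, Por was 1.53-fold higher in hCAR/hPXR livers and did not pass (edgeR adjusted p = 0.141). In that comparison DESeq2 called 1 gene of the list and limma 0.

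Among 22 receptors and factors known to act on Cyp3a promoters, 21 were tested. Besides the replaced receptors Nr1i2 and Nr1i3, the calls between hCAR/hPXR and WT CITCO livers were Onecut1 (HNF6; fell by 2.04 on the log2 scale, edgeR adjusted p = 0.00262) and Foxa2 (fell by 1.25, edgeR adjusted p = 0.00961). Both are liver-enriched transcription factors, and both were also called higher in WT CITCO than in WT corn oil livers (3.17 and 1.12, edgeR adjusted p = 0.000195 and 0.0292), a comparison in which 0 Cyp3a genes were called and which shares the WT CITCO libraries with the first. With Car KO/hPXR livers as the reference, hCAR/hPXR livers had less Foxa2 and Dbp, a clock output factor (-1.10 and -0.96, edgeR adjusted p = 0.0242 and 0.039). Rxra, the partner of PXR and CAR, differed by 0.19 (SE 0.17, edgeR adjusted p = 0.801) and Hnf4a by 0.13 (SE 0.19, edgeR adjusted p = 0.892) between hCAR/hPXR and WT CITCO livers.

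Other genes known to respond to PXR or CAR were called beside Cyp3a11 in the same livers. Of 35 listed, 31 were tested, and 5 rose and 0 fell between WT CITCO and hCAR/hPXR livers. Of all genes tested, 0.256% were called higher and 0.151% lower there. DESeq2 called 4 of the list and limma 6. The median log2 difference of the list was 0.32, against 0.01 over all genes. The 5 genes called by edgeR were led by Cyp2b10 (log2 fold change 6.05), Cyp2c55 (4.25), Gstm3 (2.57) and Cyp2c29 (1.93). Their edgeR adjusted p lay between 4.75e-08 and 0.0149. Cyp2b10 and Cyp2c29 are known CAR targets, and Gstm3 is a glutathione transferase. Against Car KO/hPXR livers, where no Cyp3a gene was called, 6 were higher and 0 lower, led by Cyp2b10 (7.16), Cyp2c55 (3.86) and Cyp2c29 (2.36). Over all genes, 0.303% were called higher and 0.279% lower in that comparison. Between Car KO/hPXR and WT CITCO livers 2 of the 31 rose (Gstm2 by 1.08 and Papss2 by 0.85) and 2 fell (Cyp2c37 by 1.68 and Cyp2c50 by 1.48). The shares over all genes were 0.163% higher and 0.0931% lower, and DESeq2 called 6 of the list and limma 2. In WT livers given CITCO rather than corn oil, 1 rose (Alas1, the first enzyme of haem synthesis, by 1.73, edgeR adjusted p = 0.0264) and 0 fell. The shares over all genes were 0.175% and 0.0582%.

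Sex-biased genes bear on Cyp3a41a and Cyp3a44, which are usually found in female liver. Of 18 other genes known as female-biased, 7 were tested, and 0 were called between hCAR/hPXR and WT CITCO livers (4 at an unadjusted p under 0.05, 0 by DESeq2 and 0 by limma), with a median log2 difference of -0.70. Their summed level was 124.2 to 174.3 CPM in hCAR/hPXR and 183.9 to 549.3 CPM in WT CITCO livers. The few counts of Cyp3a41a had the opposite order, but this gene was not tested. Some of its reads were divided with other genes, and the part of this in its order was not tested. The single call of this list in the 7 comparisons was Cyp4a10, which fell by 2.09 on the log2 scale between WT corn oil and hCAR/hPXR livers (edgeR adjusted p = 0.0147), where DESeq2 called 2 genes of the list and limma 0. Of 20 male-biased genes, all tested, 0 were called between hCAR/hPXR and WT CITCO livers (4 at an unadjusted p under 0.05, 0 by DESeq2 and 0 by limma), with a median of -0.13.

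Cyp3a11 is known to be higher around the central vein, and the zonal markers were examined for that reason. Of 12 pericentral genes, 10 were tested, and 1 fell between WT CITCO and hCAR/hPXR livers (Aldh3a2, by 1.13 on the log2 scale, edgeR adjusted p = 0.0185) while 0 rose. Of 12 periportal genes, all tested, 0 were called there (3 at an unadjusted p under 0.05, 0 by DESeq2 and 0 by limma). The summed pericentral level was 4231 to 6663 CPM in hCAR/hPXR and 6081 to 7213 CPM in WT CITCO livers, which overlapped.

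Across the 12 livers, the levels of the tested members were positively correlated, most weakly for Cyp3a13 with Cyp3a59. Pearson's r of log2 CPM was 0.926 between Cyp3a11 and Cyp3a25, 0.886 between Cyp3a25 and Cyp3a59 and 0.851 between Cyp3a11 and Cyp3a59, and with the group means removed it was 0.845, 0.563 and 0.712. For Cyp3a13, r was 0.867 with Cyp3a11, 0.743 with Cyp3a25 and 0.587 with Cyp3a59. With the group means removed it was 0.547, 0.59 and 0.209. These values describe 12 libraries of 4 groups that differ in depth, and no test was made of them. Among the 8588 other genes compared, those most like Cyp3a11 were Cxcl1 (0.933), a chemokine that draws neutrophils, Cyp3a25 (0.926) and Cyp3a63-ps (0.914), which can share reads with Cyp3a11. Those most like Cyp3a13 were the fibrinogen genes Fga (0.966) and Fgb (0.915), with Raph1 (0.919) between them. Cyp3a25 was followed most closely by Cyp3a11, Serpina3m (0.916) and N4bp2l2 (0.91), and Cyp3a59 by Cyp3a25, Nol6 (0.879) and Inf2 (0.852). For the sum over the 7 genes they were Cxcl1 (0.934), Cyp3a63-ps (0.918) and the carboxylesterase Ces2a (0.912). With the group means removed, r of Cyp3a11 was 0.574 with Cxcl1, and r of Cyp3a13 was 0.913 with Fga.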

How the data were processed

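Total liver RNA was extracted with TRIzol, 3′ libraries were made with the QuantSeq kit and sequenced on an Ion Torrent instrument. The authors checked reads with FastQC 11.7, trimmed them with Trimmomatic 36, aligned them with STAR 2.5.2 and estimated expected counts per gene with RSEM 1.3 (Ensembl, GRCm38). RSEM divides reads among genes by likelihood, so close relatives can trade reads. The authors also deposited values of a variance-stabilising transformation by DESeq2, which are on a log2-like scale and shrink the differences of low genes. All samples were assigned to groups by their titles.

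After rounding of the deposited expected counts to whole numbers and TMM scaling, edgeR 4.0.16 (R 4.3.3) was run with filterByExpr and 1 mean per group over all 12 libraries. Symbols were joined by Ensembl ID from the transformed table, which holds 5 of the 7 members, and from a reference table of gene names for the other genes. Alternatives were RLE size factors, no filter on low counts, DESeq2 1.42.0, limma 3.58.1 on the transformed values, only the compared groups, a replicate block and leaving out each library. Single genes were also compared by exact permutation of log2(CPM + 1). The sum over the 7 genes was fitted as 1 feature in place of its members and not tested. The scripts were tested on simulated data with 200 changed genes. For simulated hCAR/hPXR over WT CITCO livers, 36.1% of the tested 2-fold changes and 90.8% of the 4-fold changes were called. Of 130 calls, 6 were false. A 2-fold difference can thus go uncalled.

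Library totals ranged from 1167027 to 2341572 counts, which limits precision for genes with few reads. Positions are from GENCODE M21 and promoters from RefSeq (matched by symbol for all 7 members), and transcripts were aligned with Biopython 1.88. The labels give CITCO at 10 mg/kg. The members and gene lists were chosen with earlier results of these data known. All 7 members were named, with other Cyp3a genes, the 3 genes most like each tested member and at most 4 genes per list and comparison, called ones first by size of the fold.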

Additional observations from a re-analysis of the deposited data

How the results depend on the processing

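The number of Cyp3a genes called changed with the filter, the tool and the libraries used. With no filter on low counts, edgeR called 3 for Car KO/hPXR over WT CITCO, 2 for hCAR/hPXR over Car KO/hPXR, 4 for hCAR/hPXR over WT corn oil and 2 for Car KO/hPXR over WT corn oil. DESeq2 called 2 for Car KO/hPXR over WT CITCO and 2 for hCAR/hPXR over Car KO/hPXR livers, and the fit of only the compared groups called 1 for Car KO/hPXR over WT CITCO. The cause was not tested. Leaving out 1 library gave 1 to 3 calls for hCAR/hPXR over WT CITCO, 0 to 1 for Car KO/hPXR over WT CITCO, 0 to 1 for hCAR/hPXR over Car KO/hPXR, 1 to 3 for hCAR/hPXR over WT corn oil and 0 to 3 for both humanised groups over WT CITCO. Directions turned for differences that were not called: Cyp3a11 in WT CITCO over WT corn oil (-0.338 to 0.158 with 1 library left out, 0.158 without WT corn oil replicate 1), Cyp3a59 in hCAR/hPXR over Car KO/hPXR (-0.165 to 0.563, with -0.165 without Car KO/hPXR replicate 3 and -0.002 without hCAR/hPXR replicate 2) and Cyp3a13 in Car KO/hPXR over WT CITCO (-0.004 to 0.23, with -0.004 without Car KO/hPXR replicate 2). Over the single genes and the sum, 375 values stayed the same. For a single gene this means the same direction and side of the threshold, and for the untested sum a shift within 1 SE of its main estimate. Of the values of single genes, 23 newly passed the threshold, 18 fell short of it and 4 turned. The sum moved by more than 1 SE in 6 values, among them 1 that also turned (WT CITCO over WT corn oil, 0.128 without WT corn oil replicate 1).

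Over all genes, the calls of edgeR in the 7 comparisons numbered 35, 22, 50, 20, 85, 4 and 37 (in the order of the report), 184, 227, 233, 179, 261, 95 and 199 with no filter, 63, 69, 96, 42, 127, 10 and 56 with DESeq2, and 35, 15, 43, 13, 63, 4 and 27 with limma. With a replicate block the Cyp3a calls numbered 3, 0, 0, 0, 2, 0 and 3, as without it, and those over all genes 33, 24, 53, 20, 91, 5 and 29. Whether the replicate numbers pair the samples was not settled, and the tests above did not pair them. Deviations from the group means correlated between -0.057 and 0.075 (median 0.029) over 18 pairs with the same number in different groups. Over 36 pairs with different numbers they correlated between -0.116 and 0.136 (median -0.01). Of 12 libraries, 9 correlated best with their own number. Cyp3a59 rests on 7 to 86 counts per library, and Cyp3a16, Cyp3a41a and Cyp3a44 lay too low to be tested.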
